A study of Mus musculus with 2 samples.

Results

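Cluster 18 of the authors' clustering of mouse dural cells held 183 of 12544 annotated cells and is described here as dural monocytes. Its members were taken by the cluster number in the deposited cell metadata, 92 from the KO library of 6594 annotated cells and 91 from the het library of 5950. The study compared the dura, the tough outer sheet of the meninges that lines the skull, of mice with and without a working Il33 gene by droplet single-cell RNA sequencing. The KO mice carried an H2B-mCherry reporter allele at both copies of Il33 and lacked IL-33, and the het controls carried 1 reporter allele and 1 intact copy, so both genotypes had the reporter. All mice were taken at postnatal day 14, 2 weeks of age, with tissue of 5 to 8 animals pooled for each genotype and sex. There was 1 library for each genotype. The dura was digested enzymatically for 30 min at 37 degrees, and sorted CD45+CD11b- cells and gp38+CD31- cells were mixed with unselected viable cells in parts of 1:1:2. Monocytes carry CD11b, so they enter mainly with the unselected cells, and the share of the cluster in each library is set in part by this mix.

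Monocytes are circulating white blood cells made in the bone marrow from progenitors shared with granulocytes. Classical monocytes carry Ly6C and the chemokine receptor CCR2 and enter tissue, where they can become macrophages or dendritic cells, while non-classical monocytes have little Ly6C, depend on the nuclear receptor NR4A1 and patrol the inside of vessels. The dura lies against the skull marrow, from which monocytes and other myeloid cells reach it through bone channels. IL-33 is an alarmin of stromal and barrier cells that acts through the receptor ST2, the product of Il1rl1, and the adaptor MyD88.

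Values are unique molecular identifiers (UMIs), each standing for 1 captured RNA molecule. They were summed over the cluster's cells of a library and scaled to counts per 1000000 UMIs (CPM) of the same cells. The cluster held 1269669 UMIs in KO and 1263298 in het, with a median of 10120.5 UMIs per KO cell and 9745 per het cell. A ratio is the KO level divided by the het level. Since each genotype had 1 library, no difference has a replicate check and no test was made, so genotype, animals, sort and preparation cannot be told apart. Intervals are exact 95% intervals that cover counting error only. The libraries shared 36 barcodes, of which 0 belonged to cluster 18. The targeted gene was lower in KO over all other annotated cells, with Il33 at 9.81 CPM in KO and 44.1 CPM in het, and in the cluster it had 0 UMIs in KO and 5 in het.

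The cells carried both marker genes of the monocyte label. Ly6c2, which encodes a Ly6C antigen, stood at 1088 CPM in KO and 1149 CPM in het, and over all other annotated cells it was at 26.2 CPM in KO and 27.0 CPM in het. Ccr2, the receptor for CCL2, stood at 732 CPM in KO and 554 CPM in het, against 56.7 CPM in the other KO cells and 49.0 CPM in the other het cells. A Ly6c2 UMI was present in 56.5% of KO and 58.2% of het cells, and a Ccr2 UMI in 79.3% of KO and 72.5% of het cells. In the B cell-like cluster 1, whose cells should lack Ly6c2, the share with a UMI of it was 1.93% in KO and 1.24% in het at median depths of 4178 UMIs in KO and 3934.5 UMIs in het. After each cell was thinned to 1000 UMIs, the share with Ly6c2 in cluster 18 was 33.6% in KO and 32.9% in het. The clusters were built from these same cells and may have used these genes, so the levels describe the cluster and are no test of it.

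The leading genes of the cluster over all other cells, with 5 CPM added to each side, were Ly6c2 at 35.6-fold, the lysozyme gene Lyz2 at 20.9-fold, the orphan receptor gene Gpr141 at 17.8-fold and the clotting factor gene F10 at 17.6-fold. The haptoglobin gene Hp followed at 17.5-fold, the complement gene C3 at 17.2-fold and the galectin gene Lgals3 at 16.8-fold. Treml4, Fcgr4, Adgre4 and Itgal, all known from non-classical monocytes, were also among the first 15. Of 8 monocyte markers and 8 non-classical markers, 7 each stood at least 2-fold above the other cells, as did 4 of 5 granulocyte progenitor markers. Against cluster 3, which had C1qa at 3925 CPM in KO and 3633 CPM in het, the largest ratios were those of Ly6c2, Prtn3, Hp, S100a8 and Plac8. Against cluster 13, which had S100a8 at 52011 CPM in KO and 49436 CPM in het, they were those of Eno3, Plac8, Ace, F10 and Nxpe4. Over cluster 14 the first were Hp, Ly6c2, Cybb, Prtn3 and Ifitm6, and over cluster 11 they were Prtn3, S100a9, S100a8, Ly6c2 and Hp. Of these, Prtn3, S100a9 and S100a8 describe only a part of the cluster, with a UMI in 25.7%, 32.2% and 43.7% of its cells. In KO 1 cell held 5977 of 6649 S100a9 UMIs and 5609 of 7814 S100a8 UMIs.

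**Figure D1:**
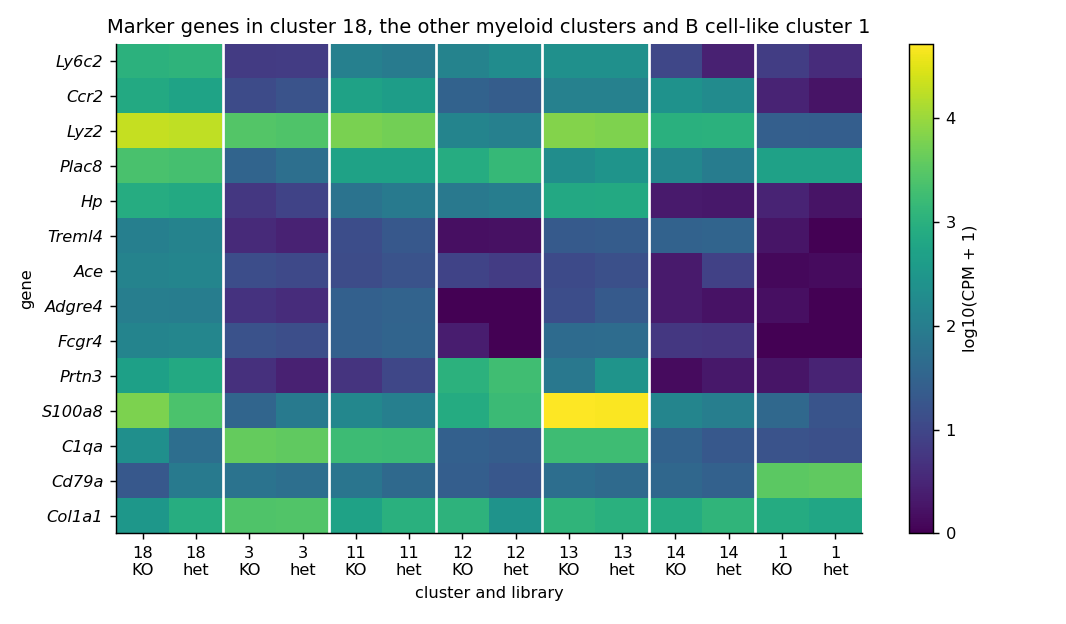
Levels of 14 genes in cluster 18, the myeloid clusters 3, 11, 12, 13 and 14 and the B cell-like cluster 1, as log10(CPM + 1), with the KO column left of the het column for each cluster. Ly6c2, Treml4, Ace, Adgre4 and Fcgr4 are highest in cluster 18, while S100a8 is highest in cluster 13, C1qa in cluster 3 and Cd79a in cluster 1.

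Markers of other cell types were present in parts of the cluster. At least 3 of 9 neutrophil markers were seen in 14 KO and 12 het cells, at least 3 of 10 border macrophage markers in 11 KO and 12 het cells, and at least 3 of 8 B cell markers in 3 KO and 7 het cells. For stroma the count was 87 KO and 72 het cells, and Col1a1 UMIs were about as frequent in the B cell-like cluster 1, with 95.7% of KO and 85.7% of het cells in cluster 18 and 95.2% of KO and 84.1% of het cells in cluster 1. Collagen genes at 1 or a few UMIs are therefore at the background share. The summed neutrophil markers stood at 15115 CPM in KO, with 16183 of 19191 UMIs in 1 cell, and at 3367 CPM in het. The summed B cell markers stood at 69.3 CPM in KO and 384 CPM in het, and the mast cell or basophil markers at 158 CPM in KO and 796 CPM in het, with 991 of the 1006 het UMIs in 1 cell. Listed markers with 0 UMIs in the whole cluster were Cd3e and Gata3 of lymphocytes, Fcer1a of mast cells, Tie1 of endothelium and Klk1 of plasmacytoid dendritic cells. The same held for Ppbp, Gp9 and Gp1bb of platelets, Dcstamp of osteoclasts and Sall1 of microglia. These zeros do not show that a cell type was absent, since other members of most of these lists were seen. At least 20 UMIs were reached by 6 of 8 mast cell or basophil, 3 of 6 osteoclast and 2 of 6 microglia markers. The count was 2 of 6 for plasmacytoid dendritic cells, 1 of 5 for platelets and 0 of 6 for endothelium.

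The cluster was 1.40% of annotated KO cells (1.13 to 1.71) and 1.53% of annotated het cells (1.23 to 1.87), a ratio of 0.912 (0.675 to 1.23). Among the myeloid clusters 3, 11, 12, 13, 14 and 18 its share was 7.10% in KO and 7.50% in het, a ratio of 0.948 (0.702 to 1.28). Both intervals hold 1, so a difference in share was not detectable at this number of cells.

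The cells of the cluster were spread between a classical and a non-classical pole. The summed UMIs of 12 classical genes ran from 8.14 to 219 per 10000 UMIs of a cell in KO and from 5.29 to 227 in het, and those of the non-classical list from 1.34 to 142 in KO and from 1.98 to 155 in het. Across cells the 2 sums ran opposite, with a Spearman rho of -0.62 over the 92 KO cells and -0.53 over the 91 het cells. Both sums share each cell's depth, so these values are a description. Ly6c2 itself showed the same order, with a UMI in 29 of 29 cells that had none of the 8 non-classical markers, in 90.9% of the 44 cells with 1 marker, in 60% of the 10 cells with 3, in 18.5% of the 27 cells with 6 and in 0 of the 4 cells with all 8. Most cells lay toward an end, with 73 cells holding 0 or 1 non-classical markers and 71 holding 5 or more.

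**Figure D2:**
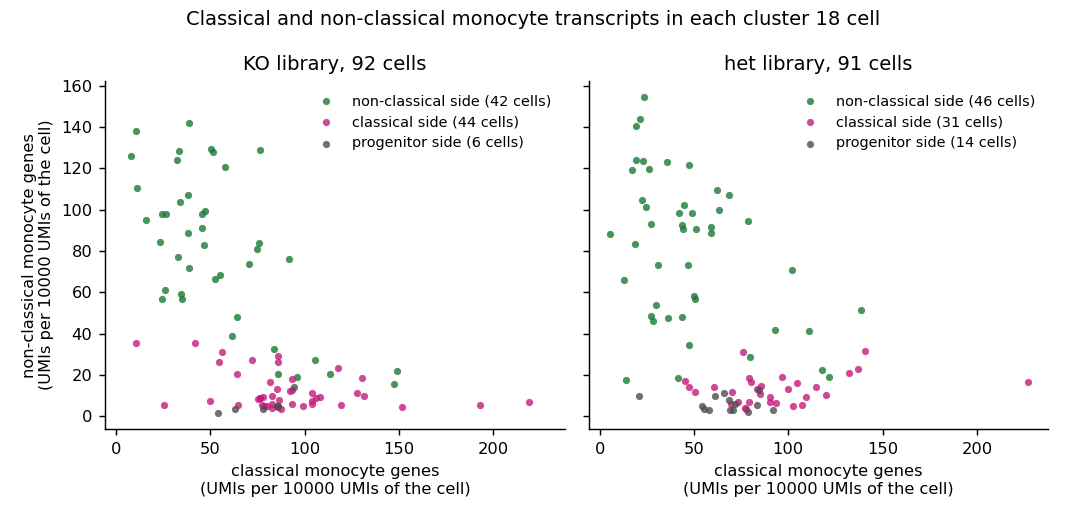
Each point is 1 cell of cluster 18, KO cells in the left panel and het cells in the right, with the summed UMIs of the classical list and of the non-classical list per 10000 UMIs of the cell on the axes and the side of the cluster as colour. In both panels most non-classical cells have a higher non-classical sum than the classical and progenitor cells, with rho of -0.62 in KO and -0.53 in het. The sides overlap, since classical cells reach 35.7 in KO and 31.4 in het and non-classical cells go down to 15.4 in KO and 17.4 in het. The 8 markers that set the non-classical side are part of that list, so the separation follows in part from the rule.

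For description the cluster was divided into 3 sides by marker counts, a rule chosen after the values were seen. A cell with at least 3 of the 5 granulocyte progenitor markers Mpo, Elane, Prtn3, Ctsg and Ms4a3 was put on the progenitor side, any other cell with at least 3 of the 8 non-classical markers on the non-classical side, and the rest on the classical side. A side is a range along these counts and not a cell type, and 29 cells lay at the border of the non-classical side and 13 at that of the progenitor side. The non-classical side held 42 KO cells (45.7% of the cluster, 35.2 to 56.4) and 46 het cells (50.5%, 39.9 to 61.2). The classical side held 44 KO cells (47.8%, 37.3 to 58.5) and 31 het cells (34.1%, 24.5 to 44.7). The progenitor side held 6 KO cells (6.52%, 2.43 to 13.7) and 14 het cells (15.4%, 8.67 to 24.5). The ratio of shares was 0.903 (0.580 to 1.40) for the non-classical side, 1.40 (0.867 to 2.30) for the classical side and 0.424 (0.134 to 1.17) for the progenitor side. The direction of the last 2 was the same with 2 or 4 markers in the rule, each interval holds 1, and neither difference was detectable at these cell numbers.

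The sides differed in genes that the rule had not used, named here after their values were seen. On the non-classical side Fcgr4, an activating Fc receptor gene, stood at 414 CPM over both libraries, against 23.9 CPM on the classical side. The scavenger receptor gene Cd36 stood at 302 CPM on the non-classical and 6.21 CPM on the classical side, Hes1, a transcription factor of the Notch pathway, at 177 and 5.32 CPM, and Gngt2, a G protein subunit gene, at 1006 and 89.5 CPM. On the classical side Ly6c2 stood at 1089 CPM, against 214 CPM on the non-classical side. The fibronectin gene Fn1 stood at 1406 CPM on the classical and 377 CPM on the non-classical side, the coagulation factor XIII gene F13a1 at 432 and 93.3 CPM, and the chemokine receptor gene Ccr1 at 133 and 35.0 CPM. On the progenitor side Ly6c2 was at 2275 CPM, and the replication helicase gene Mcm3 was at 228 CPM, against 47.9 CPM on the classical and 16.8 CPM on the non-classical side. The authors' clustering may have used these genes, so these values too describe the cells.

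Depth and cell cycle moved with the side. The median was 7770.5 UMIs per non-classical cell, 11879 per classical cell and 30754.5 per progenitor cell. A deposited G1 phase call was given to 81 of 88 non-classical, 52 of 75 classical and 0 of 20 progenitor cells. The 10% of annotated cells with the highest Scrublet doublet scores in each library included 4 of 88 non-classical, 17 of 75 classical and 17 of 20 progenitor cells. Over cells, the median sum of neutrophil markers was 1.01 per 10000 UMIs on the non-classical, 1.72 on the classical and 3.59 on the progenitor side, and that of stromal markers was 11.6, 7.05 and 3.22. Whether depth or doublets set any of these differences was not tested.

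Between genotypes most of the cluster's genes stood close together. Of 3522 genes with at least 100 UMIs and a UMI in at least 10% of the cells of 1 library, 234 (6.64%) were at least 1.5-fold apart, and the median log2 ratio was -0.04. At least 1.5-fold higher in KO were 56 genes (1.59% of those measured) and at least 1.5-fold lower were 178 (5.05%). The split depends on the scaling, since TMM factors moved every log2 ratio up by 0.10 and gave 90 higher and 108 lower. Of the 56 and 178 genes, 33 and 113 stayed past 1.5-fold when the top cell or the top 3 cells of each gene in each library were left out and when each cell was weighted alike.

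The genes with the largest ratios rested on few cells. The 24 named genes are the 12 in each direction whose interval lay farthest from 1. The first of those higher in KO were the MHC class II genes H2-Eb1 at 43.6-fold (24.1 to 87.9), H2-Aa at 24.0-fold and H2-Ab1 at 18.7-fold. After them came Lcn2, the lipocalin of neutrophil granules, at 11.6-fold and S100a9, a subunit of calprotectin, at 5.94-fold. A KO cell of 77281 UMIs, 7.64 times the KO median and 6.09% of all KO UMIs of the cluster, held most of them. It carried 423 of 482 H2-Eb1 UMIs, 739 of 769 Lcn2 UMIs, 5977 of 6649 S100a9 UMIs, 2554 of 2560 Camp UMIs and 196 of 286 C1qa UMIs. The same cell had UMIs of 8 of 9 neutrophil, 5 of 10 border macrophage and 6 of 8 monocyte markers, 7047 genes and a Scrublet score among the highest 10%. In het a cell of 16720 UMIs with 5 of 8 mast cell or basophil markers held 449 of 449 Mcpt8, 224 of 392 Ccl3, 288 of 553 Ccl4 and 50 of 58 Il6 UMIs. These 2 cells were picked after the values were seen.

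Without these 2 cells 48 genes were at least 1.5-fold higher and 165 lower in KO, with 47 of the 56 and 153 of the 178 still past the fold. The ratio of Lcn2 was then 0.506, that of S100a9 0.631, that of S100a8 0.768 and that of the chitinase-like gene Chil3 0.990, so the direction of these 4 turned. H2-Eb1 stood at 49.5 CPM in KO and 8.82 CPM in het without them, H2-Aa at 69.6 CPM in KO and 17.6 CPM in het, and Cd74, the invariant chain, at 349 CPM in KO and 272 CPM in het. The C1q genes, which encode the first component of complement, had ratios of 2.86 for C1qb, 1.49 for C1qa and 1.53 for C1qc. On the non-classical side their counts rested on 1 het cell with 33 of the 42 C1qa, 21 of the 30 C1qb and 11 of the 23 C1qc UMIs of het. The ratios there were 0.449 for C1qb, 0.347 for C1qa and 0.195 for C1qc with it, and 1.43 (0.553 to 3.85), 1.55 (0.613 to 4.11) and 0.358 (0.0841 to 1.18) without it. The last of the 12 higher genes, the interferon-induced GTPase gene Ifi47, had 70.9 CPM in KO and 21.4 CPM in het. Its ratio was 3.32 (2.14 to 5.31) with all cells and 3.45 without the 2, which left 89 of its 90 KO UMIs in place. Another KO cell held 41 of the 90. Without the top 3 cells of each library the ratio of Ifi47 was 1.66 (0.772 to 3.72), an interval that holds 1. By side it was 1.28 (0.587 to 2.84) on the non-classical and 5.50 (2.65 to 13.2) on the classical side.

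**Figure D3:**
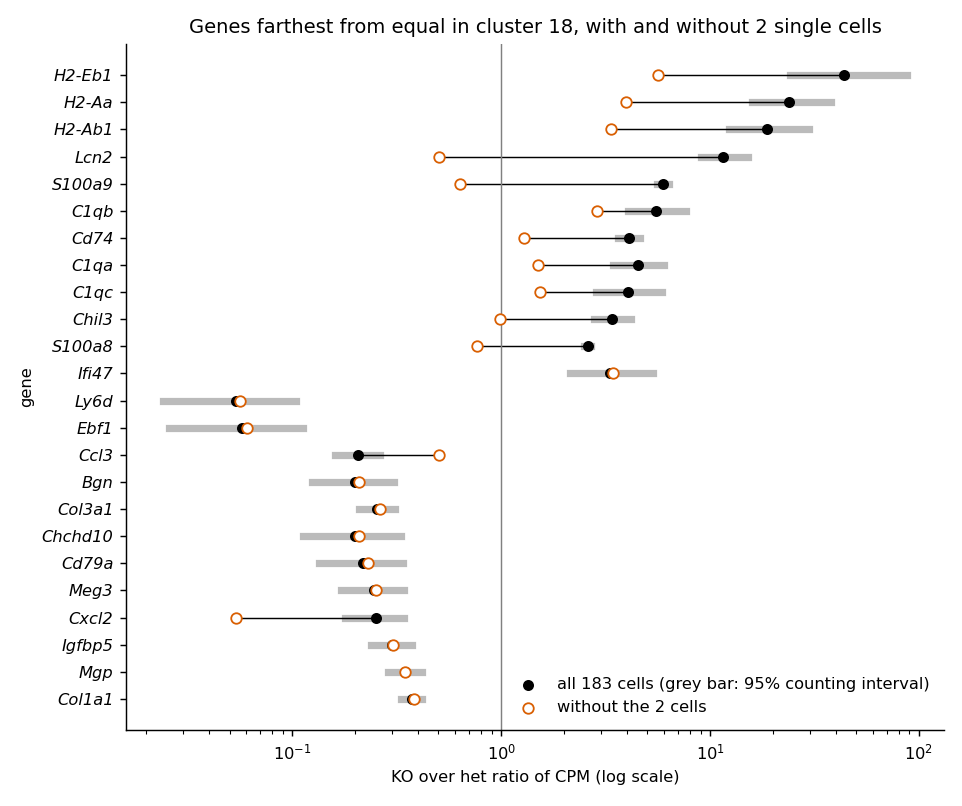
KO/het ratio, on a log axis, of the 24 named genes in cluster 18 with all cells and its 95% counting interval, and without the deepest KO cell and the het cell with most mast cell or basophil markers. Lcn2, S100a9, S100a8 and Chil3 cross 1 between the 2 settings, while Ifi47 is at 3.32 and 3.45 and Ebf1 at 0.0574 and 0.0607. Without the top 3 cells of each library, a setting not drawn here, Ifi47 is at 1.66 (0.772 to 3.72).

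Among the 12 lower genes were genes of B cells, which monocytes are not known for. Ly6d stood at 7.09 CPM in KO and 132 CPM in het, a ratio of 0.0536, Ebf1, a factor of B cell commitment, at 7.09 CPM in KO and 123 CPM in het, and Cd79a, a subunit of the B cell receptor, at 18.9 CPM in KO and 87.1 CPM in het. Ly6d UMIs were in 4.35% of KO and 13.2% of het cells, and Cd79a UMIs in 13.04% of KO and 13.2% of het cells. In cluster 1 Cd79a stood at 3323 CPM in KO and 3623 CPM in het. The part of B cell RNA in this result was not tested. Col3a1, Col1a1, Igfbp5, Mgp and Bgn, genes of matrix and connective tissue, were lower too, but 1 het cell held 611 of 1074 Col1a1 UMIs and another 289 of 523 Col3a1 UMIs. Without the top 3 cells of each library the ratios were 1.45 for Col1a1, 1.74 for Col3a1, 1.66 for Igfbp5 and 1.604 for Mgp, and that of Bgn was 0.945.

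Nfkbiz and Nfkbia, which encode regulators of NF-kB, the factor that drives inflammatory genes downstream of interleukin-1, Toll-like and ST2 receptors, were lower in KO on each side of the cluster. Nfkbiz, which encodes the nuclear cofactor IkB-zeta, had 58 UMIs in KO and 177 in het, or 45.7 CPM in KO and 140 CPM in het, a ratio of 0.33 (0.24 to 0.44). It was 0.32 on the non-classical, 0.35 on the classical and 0.36 on the progenitor side. The progenitor ratio of Nfkbiz rested on 5 KO and 30 het UMIs, with 6 of the het UMIs in the het cell with mast cell or basophil markers. Without that cell the ratio there was 0.438 (0.131 to 1.17), so a lower Nfkbiz level on that side was not detectable. Nfkbia, the inhibitor IkB-alpha that NF-kB itself induces, had 235 UMIs in KO and 500 in het, or 185 CPM in KO and 396 CPM in het, a ratio of 0.47 (0.40 to 0.55). By side Nfkbia was at 0.54, 0.50 and 0.26. Without the 2 cells it was at 0.50 (0.43 to 0.59) in the cluster and at 0.458 (0.254 to 0.782) on the progenitor side, where the het cell had 64 of 142 UMIs. Clec4e, the gene of the glycolipid receptor Mincle, stood at 106 CPM in KO and 180 CPM in het, a ratio of 0.58 (0.47 to 0.73), and was at 0.53 on the non-classical and 0.54 on the classical side. On the progenitor side it had 5 UMIs in KO and 26 in het, 14 of them in the het cell with mast cell or basophil markers, and without that cell its ratio there was 0.876 (0.242 to 2.67). These 3 genes were lower in cells of both sex labels, with Nfkbia at 0.44 in cells labelled female and 0.57 in cells labelled male.

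Both genotypes held these transcripts in many cells. Nfkbia UMIs were in 73.9% of KO and 82.4% of het cells, and in 18.03% of KO and 28.6% of het cells after thinning to 1000 UMIs. Nfkbiz UMIs were in 41.3% of KO and 53.8% of het cells, and in 5.98% of KO and 13.5% of het cells after thinning. In cluster 1 the Nfkbiz share was 13.3% in KO and 12.2% in het. Per cell, the median Nfkbia level was 1.28 per 10000 UMIs in KO and 1.91 in het and the highest cell was at 24.7 in KO and 42.2 in het, so the genotypes overlapped. At least 10 per 10000 UMIs of Nfkbia were reached by 4 KO and 12 het cells. The median Nfkbiz level per 10000 UMIs was 0 in KO and 1.08 in het on the non-classical side. It was 0 in both genotypes on the classical side, and 0.112 in KO and 0.111 in het on the progenitor side. Summed over the list of NF-kB targets the median cell was at 13.52 in KO and 13.58 in het, with 66 KO and 65 het cells at 10 or more and the highest cell at 49.4 in KO and 132 in het.

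Over the list of 18 NF-kB targets, all with at least 20 UMIs, 14 were lower and 4 higher in KO, with 5 at least 1.5-fold lower and 1 higher. The median log2 ratio was -0.27, against -0.08 over the 8015 genes of 20 or more UMIs, of which 61.2% were lower, 12.7% at least 1.5-fold lower and 5.43% at least 1.5-fold higher. Without the 2 cells the list's median was -0.30, and by side it was -0.33, -0.26 and -0.29. Traf1, a signalling adaptor gene, had a ratio of 0.35 (0.18 to 0.65), the mitochondrial superoxide dismutase gene Sod2 0.62 (0.49 to 0.79) and Rel, a subunit of NF-kB, 0.70 (0.57 to 0.87). Tnfaip3, whose product A20 limits NF-kB, had a ratio of 0.49, but 36 of its 101 het UMIs were in 1 cell and without the 2 cells it was 0.79 (0.53 to 1.16). Bcl3, which encodes an IkB-like nuclear protein, was on the other side, at 67.7 CPM in KO and 46.7 CPM in het, a ratio of 1.45 (1.03 to 2.06).

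Cytokines and chemokines that NF-kB is known to induce varied more from cell to cell. Cxcl2, a neutrophil chemokine, had 49 UMIs in KO and 195 in het, with 39 of the KO UMIs in the deepest cell, and stood at 38.6 CPM in KO and 154 CPM in het. Without the 2 cells it was at 8.39 CPM in KO and 156 CPM in het, a ratio of 0.054 (0.025 to 0.10). On the classical side its ratio was 1.91 with all cells and 0.286 (0.0901 to 0.793) without the 2. A Cxcl2 UMI was present in 5.43% of KO cells (1.79 to 12.2) and in 24.2% of het cells (15.8 to 34.3), and in 1.21% of KO and 10.3% of het cells after thinning. The share in cluster 1 was 0.362% in KO and 3.56% in het. Il1b, the gene of interleukin-1 beta, stood at 907 CPM in KO and 1149 CPM in het, a ratio of 0.79 (0.73 to 0.85), with a UMI in 79.3% of KO and 83.5% of het cells. Per cell its median ran the other way, at 8.59 per 10000 UMIs in KO and 7.98 in het. Tnf had 17 UMIs in KO and 47 in het and Nlrp3, the inflammasome sensor gene, stood at 74.8 CPM in KO and 132 CPM in het, a ratio of 0.57 (0.44 to 0.73). Of 15 inflammatory cytokines and mediators measured out of 20, 13 were lower and 2 higher, 6 at least 1.5-fold lower, beside 61.2% and 12.7% over all genes of 20 or more UMIs. The list's median was -0.29, and -0.21 without the 2 cells.

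Of 12 chemokine ligands measured out of 19, 7 were lower and 5 higher in KO, near the 61.2% lower over all genes of 20 or more UMIs. Their median was -0.36 and became -0.17 without the 2 cells. Ccl3, an inflammatory chemokine gene, stood at 63.8 CPM in KO and 310 CPM in het, and at 67.9 CPM in KO and 135 CPM in het without them. Ccl4, another inflammatory chemokine gene, had a ratio of 0.40 with all cells and 0.88 (0.74 to 1.06) without the 2. Ccl2, the ligand of CCR2, had 125 UMIs in KO and 127 in het, a ratio of 0.98 (0.76 to 1.26). Pf4, a platelet and macrophage chemokine, was higher at 95.3 CPM in KO and 54.6 CPM in het.

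The promoters of Cxcl2 and Nfkbia are shown because both genes stood lower in KO and both hold a kappaB-like match in the 250 bases before the start of the gene. The searched motif was GGGA and TTCC with any 2 bases between them, on either strand, in RefSeq promoters of build GRCm38.p6, and capitals mark the matches. The Cxcl2 promoter (chr5:90903649-90903898, plus strand) has 2 overlapping matches, 1 on each strand, that begin 97 and 96 bases before the start. The Nfkbia promoter (chr12:55492648-55492897, minus strand) has 1 match on the other strand, 29 bases before the start.
Cxcl2: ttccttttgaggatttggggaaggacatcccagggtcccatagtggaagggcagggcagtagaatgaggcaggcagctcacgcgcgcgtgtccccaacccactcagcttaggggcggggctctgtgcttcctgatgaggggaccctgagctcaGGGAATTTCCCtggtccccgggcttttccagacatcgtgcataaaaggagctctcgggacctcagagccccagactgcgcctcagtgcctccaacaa
Nfkbia: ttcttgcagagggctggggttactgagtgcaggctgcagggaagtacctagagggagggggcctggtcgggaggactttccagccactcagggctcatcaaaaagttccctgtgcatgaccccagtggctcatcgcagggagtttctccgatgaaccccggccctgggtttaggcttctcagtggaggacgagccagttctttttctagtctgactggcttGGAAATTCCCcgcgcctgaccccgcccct
The motif was in 397 of 32851 promoters of the same length (1.21%), in 2 of the 14 NF-kB target genes with a promoter in the table (14.3%) and in 4 of 13 chemokine ligand genes (30.8%). A match is a run of letters and no measure of binding.

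Nfkbia and Nfkbiz were also lower in KO in other myeloid clusters of these libraries. Nfkbia had a ratio of 0.36 in cluster 3, 0.28 in cluster 11, 0.52 in cluster 12, 0.36 in cluster 13 and 0.92 in cluster 14, against 0.47 in cluster 18. In the B cell-like cluster 1 Nfkbia stood at 628 CPM in KO and 558 CPM in het. Nfkbiz was at 0.40 in cluster 3, 0.27 in cluster 11, 0.50 in cluster 12, 0.37 in cluster 13, 0.52 in cluster 14 and 1.03 in cluster 1. The median log2 ratio of the NF-kB list was -0.54 in cluster 3 and -0.34 in clusters 11 and 13, against -0.27 in cluster 18. In cluster 12 the list's median was -0.21, with 8 higher and 10 lower, and in cluster 14 it was -0.06, with 7 higher and 11 lower. In cluster 1 it was 0.04. The clusters come from the same 2 libraries, and the differences between clusters were not tested. Of 15 immediate early genes measured in cluster 18, which mark recent stimulation or handling, 11 were higher, with a median of 0.16. Over all genes of 20 or more UMIs 38.8% were higher. With each cell weighted alike 8 were higher and 7 lower, and on the non-classical side 6 were higher and 9 lower. The list's median was -0.08 in cluster 3, -0.41 in cluster 11 and -0.05 in cluster 12. It was -0.10 in cluster 13, -0.01 in cluster 14 and 0.22 in cluster 1. The part of stimulation or handling was not tested. Within that list Atf3 stood at 783 CPM in KO and 469 CPM in het, a ratio of 1.67 (1.51 to 1.85), and Egr1 at 84.3 CPM in KO and 154 CPM in het, a ratio of 0.55 (0.43 to 0.70).

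Interferon response genes were higher in KO, with part of the difference in a few classical cells. Of 23 genes measured out of 24, 22 were higher and 1 lower, 16 of them at least 1.5-fold higher, where 38.8% of all genes of 20 or more UMIs were higher and 5.43% at least 1.5-fold higher. The list's median log2 ratio was 0.90, and it was 0.94 without the 2 cells, 0.59 without the top 3 cells of each gene and 1.05 with each cell weighted alike. Isg15, a ubiquitin-like protein gene, had 195 UMIs in KO and 74 in het, or 154 CPM in KO and 58.6 CPM in het, a ratio of 2.62 (2.00 to 3.47). The UMIs of Isg15 were in 22.8% of KO and 21.98% of het cells, and 109 of the 195 KO UMIs were in 1 classical cell of 17079 UMIs that also held 13 of the 22 Rsad2 UMIs. Without the top 3 cells of each library Isg15 was at 2.03.

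Other members were lower in count. Ifit3, an interferon-induced gene, had 53 UMIs in KO and 11 in het, a ratio of 4.79 (2.47 to 10.2). Ifit1 had 36 UMIs in KO and 4 in het, and Rsad2, the antiviral viperin gene, had 22 UMIs in KO and 1 in het, a ratio of 21.9 (3.54 to 903). Rtp4, an interferon-induced chaperone gene, was present in 27.2% of KO cells (18.4 to 37.4) and 12.1% of het cells (6.19 to 20.6), in 5.20% of KO and 1.89% of het cells after thinning, and in cluster 1 in 0.603% of KO and 1.55% of het cells. The regulators Irf7 and Stat2 had ratios of 1.55 (1.20 to 2.01) and 2.74 (1.17 to 7.11). Bst2, the tetherin gene, was at 162 CPM in KO and 107 CPM in het. The gene that was lower, the RNA sensor gene Oas1a, had 18 UMIs in KO and 20 in het, a ratio of 0.90 (0.45 to 1.78).

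The classical and non-classical sides of the cluster did not share the interferon difference. On the classical side the list's median was 0.74, with 20 of 23 genes higher, and 0.90 without the 2 cells. On the non-classical side it was -0.26, with 11 higher and 12 lower, and Isg15 there had a ratio of 0.55. On the progenitor side the list's median was 1.13, with 16 higher and 7 lower. A gene with equal counts in both libraries has this same value there, so that median shows no direction. The difference between the sides was not tested. Summed over 21 of the genes, without the broadly present Ifitm3, Ly6e and Ifi27l2a, the median cell held 3.80 per 10000 UMIs in KO and 3.33 in het. The highest KO cell reached 243 and the highest het cell 85.2, and 2 KO cells stood above every het cell. A sum of at least 10 was reached by 10 of 44 KO and 3 of 31 het cells on the classical side and by 3 of 42 KO and 8 of 46 het cells on the non-classical side. No progenitor cell reached it, and the median progenitor cell held 1.10 in KO and 1.53 in het. Most cells of the 2 genotypes thus overlapped, and the cells of high sum were few.

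**Figure D4:**
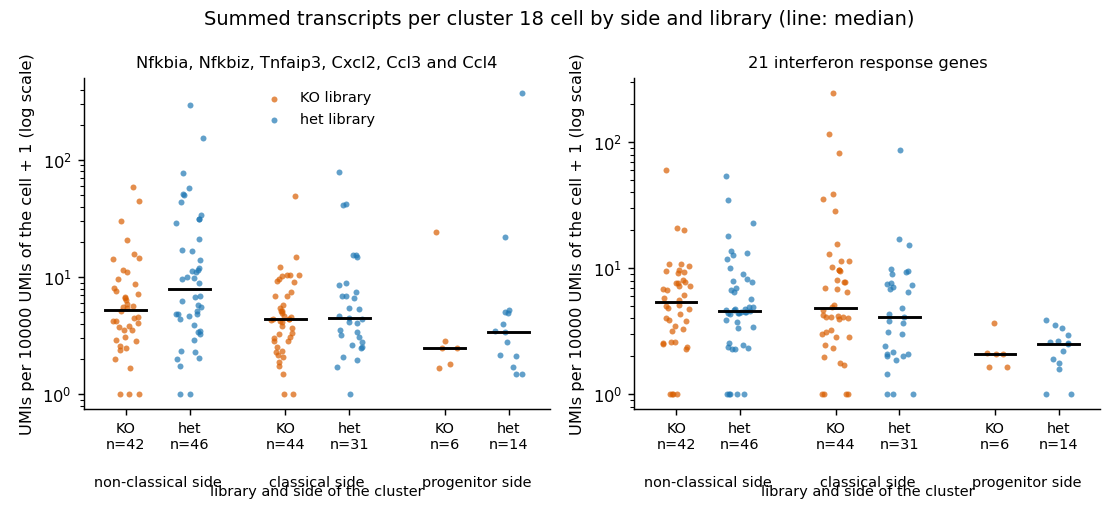
Summed UMIs per 10000 UMIs of each cell, on a log axis of value + 1, for Nfkbia, Nfkbiz, Tnfaip3, Cxcl2, Ccl3 and Ccl4 and for 21 interferon response genes, by side of cluster 18 with KO left of het. For the interferon genes the highest KO cell, on the classical side, is at 243 and the highest het cell at 85.2, and most cells of the 2 genotypes overlap.

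Isg15 and Ifit3 are shown as 2 of the interferon genes whose promoters hold an ISRE-like match. The motif searched was GAAA, any 2 bases and GAAA again, on either strand of the same RefSeq promoters, and capitals mark the matches. The Isg15 promoter (chr4:156200819-156201068, minus strand) has 3 overlapping matches that begin 78, 72 and 66 bases before the start. The Ifit3 promoter (chr19:34583279-34583528, plus strand) has 2 matches on the other strand, 156 and 122 bases before the start.
Isg15: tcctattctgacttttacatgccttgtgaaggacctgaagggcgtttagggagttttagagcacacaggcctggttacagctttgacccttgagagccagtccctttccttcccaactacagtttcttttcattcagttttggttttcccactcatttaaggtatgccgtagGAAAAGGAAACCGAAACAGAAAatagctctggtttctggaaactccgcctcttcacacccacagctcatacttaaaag
Ifit3: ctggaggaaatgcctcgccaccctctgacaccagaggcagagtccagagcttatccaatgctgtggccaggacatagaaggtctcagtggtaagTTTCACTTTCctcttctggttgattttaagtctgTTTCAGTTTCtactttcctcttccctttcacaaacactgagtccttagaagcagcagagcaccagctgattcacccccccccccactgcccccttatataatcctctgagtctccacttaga
Such a match was in 978 of 32851 promoters (2.98%) and in 10 of 17 interferon response genes with a promoter in the table (58.8%).

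In the other clusters of the same libraries the interferon list had a median of -0.02 in cluster 3, -0.44 in cluster 11, 1.02 in cluster 12, -0.26 in cluster 13 and -0.10 in cluster 1, against 0.90 in cluster 18. Isg15 was lower in KO in cluster 11, at 57.1 CPM in KO and 122 CPM in het, and in cluster 13, at 29.6 CPM in KO and 57.8 CPM in het. The difference between the clusters was not tested.

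Most listed genes of monocyte identity were under 1.5-fold apart between the genotypes. Of 12 classical genes 8 were higher and 4 lower in KO, with a median of 0.06. Chil3 and Ms4a4c, 2 of the 12, were at least 1.5-fold higher, and Chil3 was at 0.990 without the 2 cells. Over all genes of 20 or more UMIs 38.8% were higher and 5.43% at least 1.5-fold higher. Ly6c2 had a ratio of 0.95 (0.88 to 1.02), Plac8 stood at 2341 CPM in KO and 2117 CPM in het, and Ccr2 had a ratio of 1.32 (1.20 to 1.46), with 1.65 on the non-classical and 0.98 on the classical side. The CD20-like genes Ms4a4c and Ms4a6b were higher, Ms4a4c at 267 CPM in KO and 153 CPM in het, a ratio of 1.75 (1.46 to 2.10). Ms4a6b stood at 243 CPM in KO and 121 CPM in het, a ratio of 2.01 (1.65 to 2.46), and was present in 70.7% of KO and 56.0% of het cells. Fcgr1, the high-affinity IgG receptor gene, had 111 CPM in KO and 59.4 CPM in het, a ratio of 1.87 (1.40 to 2.51).

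Of 16 measured non-classical genes 8 were higher and 8 lower, none at least 1.5-fold, with a median of 0.01. Treml4, a receptor for dying cells, stood at 106 CPM in KO and 127 CPM in het, a ratio of 0.83 (0.66 to 1.05), Ace, the angiotensin-converting enzyme gene, at 130 CPM in KO and 139 CPM in het, and Nr4a1 at 417 CPM in KO and 513 CPM in het. Cx3cr1, the fractalkine receptor gene, was at 176 CPM in KO and 135 CPM in het, a ratio of 1.30 (1.06 to 1.59), and Cd36 at 78.8 CPM in KO and 112 CPM in het. Among lineage factors Spi1, the gene of PU.1, had a ratio of 0.96 (0.87 to 1.07), Irf8 1.04 (0.87 to 1.24), Klf4 0.84 (0.77 to 0.93) and Cebpb 0.94 (0.89 to 0.99). Csf1r, the receptor for M-CSF, stood at 321 CPM in KO and 378 CPM in het.

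Cell cycle genes were lower in KO summed over the whole cluster. Of 22 genes 17 were lower and 5 higher, 8 at least 1.5-fold lower, with a median of -0.32. Over all genes of 20 or more UMIs 61.2% were lower and 12.7% at least 1.5-fold lower. In cells labelled male the list's median was -0.95, with 2 higher and 20 lower. In cells labelled female it was -0.10, with 10 higher and 12 lower, near the -0.08 over all genes of 20 or more UMIs. The difference in the share of progenitor cells, a ratio of 0.424 (0.134 to 1.17), was not detectable. Mcm3 stood at 41.0 CPM in KO and 126 CPM in het, a ratio of 0.33 (0.23 to 0.45), Top2a, the topoisomerase of dividing cells, at 207 CPM in KO and 333 CPM in het, and Mki67, which encodes the Ki-67 antigen, at 216 CPM in KO and 335 CPM in het. Among the 6 KO and 14 het progenitor cells the list's median was -0.10 and on the classical side -0.11. On the non-classical side it was -1.71, but a het cell of 21666 UMIs held 323 of the 762 het UMIs of the list there, and without that cell the median was 0.073, with 12 genes higher and 10 lower. The median non-classical cell held 10.7 UMIs of these genes per 10000 in KO and 10.8 in het. Granulocyte progenitor genes differed by member, with the proteinase 3 gene Prtn3 at 485 CPM in KO and 725 CPM in het, the elastase gene Elane at 236 CPM in KO and 224 CPM in het and the myeloperoxidase gene Mpo at 154 CPM in KO and 196 CPM in het. In these sums fewer cells of a kind and less RNA per cell cannot be told apart.

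The 6 measured MHC class II genes of a list of 10 were all higher in KO, with a median log2 ratio of 3.13, of 1.22 without the 2 cells and of 0.48 without the top 3 cells of each gene. H2-DMa, a peptide exchange chaperone gene, had a ratio of 1.05 (0.86 to 1.28) without the 2 cells. Of 19 lysosomal and antimicrobial genes 16 were higher, with a median of 0.19 that became 0.06 without the 2 cells, with 12 higher and 7 lower. On the classical side 9 of these genes were higher and 10 lower. Over all genes of 20 or more UMIs 38.8% were higher. For MHC class I and peptide loading the median was 0.07, for Fc receptors and phagocytosis -0.01, for adhesion and integrins 0.00 and for glycolysis and hypoxia -0.09, near the -0.08 over all genes of 20 or more UMIs.

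The IL-33 pathway itself was little seen in these cells. Of its 11 genes 7 had at least 20 UMIs, 3 higher and 4 lower in KO, with a median of -0.20 and none at least 1.5-fold. Il1rl1 had 6 UMIs in KO and 8 in het, the 8 all in 1 cell. Myd88 stood at 62.2 CPM in KO and 72.0 CPM in het, a ratio of 0.86 (0.63 to 1.18), and Irak3, an inhibitor of the pathway, at 35.4 CPM in KO and 45.1 CPM in het, a ratio of 0.79 (0.52 to 1.18). Among the receptors and targets of IL-4 and IL-13, 6 of 11 measured genes were higher, with a median of 0.20 and of 0.06 without the 2 cells. Over all genes of 20 or more UMIs 38.8% were higher.

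**Figure D5:**
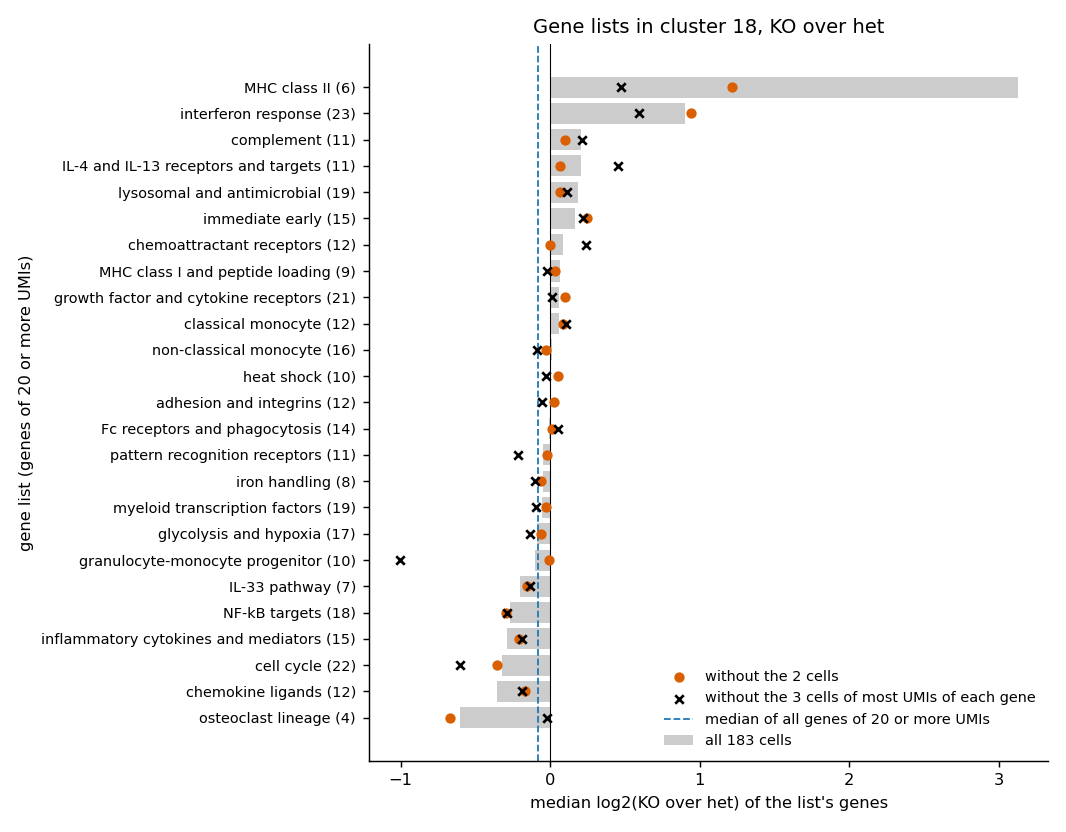
Median log2 KO/het ratio of 25 gene lists in cluster 18, as bars for all cells, dots without the 2 cells and crosses without the top 3 cells of each gene, with the median over the 8015 genes of 20 or more UMIs, -0.08, as a dashed line. MHC class II runs from 3.13 with all cells to 1.22 without the 2 cells, while the interferon list is at 0.90 and 0.94 and the NF-kB list at -0.27 and -0.30.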

How the data were processed

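Droplet single-cell RNA was measured in 2 libraries, 1 KO and 1 het. The authors made the deposited UMI counts with Cell Ranger (version 3.0.2; genome build mm10), per the submitters' processing notes. Their clustering settings, not given in the sources used here, could not be checked. The deposited metadata give library, cluster, sex label, and the authors' cell cycle scores and phase calls, per the file headers. In all 12544 cells the label is female exactly where Xist was detected, so a female cell of low depth may carry the male label. Annotated cells have at most 15.0% mitochondrial UMIs, the percent as deposited by the authors. The table of annotated cells was used, in which 99 values of cluster 18 differ from the library matrices. The KO matrix holds 12046 barcodes and 122426614 UMIs and the het matrix 10936 barcodes and 113220628 UMIs.

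UMIs were summed per library and scaled to CPM in Python 3.11.15 with numpy 2.4.6, pandas 2.3.3 and scipy 1.17.1. Ratio intervals are exact conditional binomial, shares Clopper-Pearson. A gene was called at 1.5-fold with at least 100 UMIs and a UMI in 10% of cells of 1 library. Named genes are the 12 in each direction whose interval bound nearest to 1 lies farthest from it, without mitochondrial, ribosomal protein, hemoglobin, antigen receptor, predicted and sex-linked (Xist, Y) genes. List members were named besides. Lists used members with 20 or more UMIs. In log2 ratios a sum of 0 in a library was set to 3 UMIs. Doublets were scored with Scrublet in scanpy 1.11.5, which called 0 of the KO and 2 of the het barcodes and so did not work. As an alternative, the 10% of annotated cells of each library with the highest scores were left out. TMM factors came from edgeR 4.0.16 as another scaling. Members and lists were chosen with earlier results of these data known. The ratio calculation was run on simulated library sums with known folds, drawn as Poisson counts. These sums had no spread between cells, so the run cannot show how the intervals do where single cells hold most UMIs of a gene. Promoters are from RefSeq.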

Additional observations from a re-analysis of the deposited data

Results flagged for a closer look

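Col1a1, Col3a1, Igfbp5 and Mgp, genes of connective tissue and matrix, were lower in KO in cells labelled female and higher in KO in cells labelled male, and the difference between the sex labels was not tested. The KO/het ratio was 0.257 in female and 1.81 in male cells for Col1a1, 0.180 in female and 1.82 in male cells for Col3a1, 0.206 in female and 2.09 in male cells for Igfbp5, and 0.225 in female and 1.65 in male cells for Mgp. In het, 611 of 1074 Col1a1 UMIs and 289 of 523 Col3a1 UMIs were each in 1 cell labelled female. The cluster held 45 KO and 57 het cells labelled female.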

How the results depend on the processing

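No paired analysis was possible because each genotype has 1 library, and for the same reason leaving out a replicate was not run. Leaving out cells with 3 or more markers of another class left 3 KO and 17 het cells, with KO under the minimum of 10, and gave no value. Over all alternatives 369 list medians stayed between the medians of their members' interval bounds, 29 moved and 3 reversed direction. For the ratios of named genes 201 stayed the same, 137 moved and 49 reversed direction. Counts of genes 1.5-fold higher and lower in KO, 56 and 178, were 157 and 434 with a minimum of 50 UMIs, 28 and 55 with 200, 90 and 108 with TMM, 18 and 38 at 2-fold, and 32 and 45 on the non-classical side. Those lower were 56 in male cells, 77 without the 10% of highest Scrublet scores, 83 without cells of another class with stroma by level, and 75 on the classical side. The MHC class II median, 3.13, was 1.59 with the minimum of 50 UMIs and all list genes, 1.66 with cells weighted alike, 1.49 without the top cell, 0.22 without the top 3 cells over the genes still at 20 UMIs, 2.65 in male cells, 1.11 without the highest Scrublet scores, 1.22 without 2 cells, 1.21 without cells of another class, 1.65 on the non-classical and 4.16 on the classical side. The cell cycle median was -0.95 in male cells and -1.595 on the non-classical side over genes of 20 UMIs there, and 0.073 over the whole list without 1 het cell, the classical list was 0.54 on that side, and the non-classical list -0.31 in female cells. Directions reversed as follows. On the classical side ratios were Bgn 1.29, Ccl3 1.03, Col1a1 1.81, Col3a1 2.66, Cxcl2 1.91, Igfbp5 1.93, Meg3 1.19 and Mgp 1.30. On the non-classical side they were C1qa 0.347, C1qb 0.449 and C1qc 0.195, of which only C1qc, at 0.358, stayed reversed without the het cell of most C1qa UMIs. In male cells they were Bgn 1.48, Ccl3 1.01, Col1a1 1.81, Col3a1 1.82, Igfbp5 2.09, Lcn2 0.591 and Mgp 1.65. Without the highest Scrublet scores they were Chil3 0.861, Col1a1 1.23, Col3a1 1.32, Igfbp5 1.67, Lcn2 0.715, Mgp 1.35, S100a8 0.434 and S100a9 0.497. Without cells of another class they were Bgn 1.16, C1qc 0.820, Ccl3 1.36, Cd79a 1.77, Chil3 0.775, Col1a1 1.42, Col3a1 2.06, Igfbp5 1.97, Lcn2 0.889 and Mgp 1.54. Without the top 3 cells they were Col1a1 1.45, Col3a1 1.74, Igfbp5 1.66, Lcn2 0.663, Meg3 1.47, Mgp 1.604 and S100a8 0.746, and without the top cell Lcn2 0.728. Without 2 cells they were Chil3 0.990, Lcn2 0.506, S100a8 0.768 and S100a9 0.631. The osteoclast list's median, -0.602, reversed to 0.029 with cells weighted alike, 0.48 in male cells and 0.18 without cells of another class. Alternatives by side, by top 3 cells, by 2 cells or 1 het cell and by stroma level were chosen after seeing the data. The cause was not tested. Genes under 20 UMIs were left out of list medians, and ratios of single genes on 1 side can rest on fewer.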
